A study of Mus musculus with 8 samples.

Results

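The genotype difference in the stimulation response is the change that stimulation caused in T cells lacking leukocyte-specific protein 1 (Lsp1), minus the change it caused in wild-type T cells. It was taken over all 8 arrays of the series, so its members are 8 of 8 arrays, chosen by genotype and treatment and not by any measured value. The arrays form 4 groups of 2. They are Lsp1-deficient (KO) splenic T cells given antibodies against CD3 and CD28 for 6 h, KO cells in medium, wild-type (WT) cells given the same antibodies for 6 h, and WT cells in medium. The KO mice were genetically deficient in Lsp1 and had been backcrossed for 10 generations to C57BL/6, and the WT mice were C57BL/6 of matched age and sex. The labels do not name the targeted part of the gene. All mice were 8 to 12 weeks old, and every RNA sample had an integrity number above 9.5.

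The antibodies stand in for antigen: anti-CD3 engages the T cell receptor and anti-CD28 its costimulatory receptor. Within hours the signal runs through calcium, ERK and NF-kappa-B to immediate-early transcription factors, which start the genes of cytokines, growth and ribosome assembly. Secreted interferon-gamma then acts back on the culture and induces guanylate-binding proteins and immunity-related GTPases, which defend cells against pathogens inside them. LSP1 binds filamentous actin in white blood cells and is known for its part in leukocyte migration, and the series concerns T cell migration in rheumatoid arthritis. The comparison asks which of these activation responses are kept, weaker or stronger without Lsp1.

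Each array measured labelled RNA as the brightness of its spots. Values are log2 signal relative to the array's 75th percentile, so 0 is the level of that percentile and each step of 1 is a doubling. The 75th percentile lay between 1207 and 1473 signal units, and the share of probes well above background ran from 58.41% to 69.22%. All 16 T cell markers, among them Cd3e and Lck, were well above background on all 8 arrays. Their summed signal, in multiples of the 75th percentile, was 826 and 713 in stimulated KO cells, 985 and 739 in KO medium, 787 and 838 in stimulated WT cells and 903 and 931 in WT medium. Markers of other blood cells were present too. Neutrophil and precursor markers (17 of 20 measured) summed to 153 and 466 in stimulated KO cells and 193 and 804 in KO medium, against 148 and 145 in stimulated WT cells and 256 and 173 in WT medium. Erythroid and platelet markers (15 of 18 measured) summed to 43.0 and 373 in stimulated KO cells and 39.6 and 311 in KO medium, against 95.3 and 49.5 in stimulated WT cells and 81.8 and 49.1 in WT medium. Both lists were high on the 2 KO arrays numbered 2, and many differences between the genotypes moved with the KO pair used. On the other arrays most of the neutrophil sum came from Csf3r, which lay between 6.63 and 7.66 (log2) on all 8 arrays. The median neutrophil and precursor marker, relative to WT medium, was 3.08 (stimulated) and 4.19 (medium) on KO arrays numbered 2. It was -0.73 and -0.25 on KO arrays numbered 1. B cell markers were between 38.5 and 61.4 in KO cells and between 55.8 and 86.5 in WT cells. Natural killer cell markers were between 51.3 and 69.7 in KO cells and between 58.8 and 97 in WT cells. Relative to WT medium, the median monocyte, macrophage and dendritic cell marker was 0.38 (stimulated) and 0.485 (medium) on KO arrays numbered 2. On KO arrays numbered 1 it was -0.11 and -0.09. The median cell cycle gene was 0.945 and 0.51 on KO arrays numbered 2, and -0.09 and 0.05 on those numbered 1. In such bulk RNA, fewer cells of a type and less RNA per cell cannot be told apart.

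Pooled over genes as a root mean square, the SD within a group (log2) was 0.454 in stimulated KO cells and 0.431 in KO medium, against 0.250 in stimulated WT cells and 0.252 in WT medium. Whether both arrays of a group stem from different mice is not stated, so p-values reflect only the spread between these samples, and that spread may be technical. All arrays lay on 1 slide, with KO and WT in different columns and stimulated and medium arrays in different rows, so slide position and group cannot be told apart. Within each genotype same-numbered arrays shared a column, so replicate number and slide column cannot be told apart either. With 2 arrays against 2, no exact permutation test can fall below p = 0.333. Genes were therefore tested with limma over all 15139 genes, and errors given with ± are standard errors of that fit. For each gene the 4 groups share 1 estimate of spread. The KO and WT responses of a gene thus carry the same error where no array is missing. A WT error is not the spread of the WT arrays alone, which was smaller when pooled over genes.

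Lsp1 itself checked the labels. Its log2 signal was 3.68 and 3.65 in stimulated KO cells and 3.64 and 3.48 in KO medium, against 7.05 and 6.98 in stimulated WT cells and 7.47 and 7.23 in WT medium. Every KO array was below every WT array. Stimulation changed the KO signal by 0.11 ± 0.13, which was not called (limma, adjusted p = 0.431), and the WT signal by -0.33 ± 0.13 (adjusted p = 0.0398). Their difference, 0.44 ± 0.18, had an unadjusted p of 0.0499 (limma) and did not pass adjustment over all genes.

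Stimulation raised and lowered many genes in T cells of these mice. Responsive genes were chosen by the response averaged over KO and WT, a contrast that is orthogonal to the difference between them in this balanced design. Averaged in this way, 1851 genes rose (12.2% of those tested) and 1862 fell (12.3%) at an adjusted p below 0.05. Of these, 563 rose (3.72%) and 345 fell (2.28%) by at least 2-fold, and these 908 genes are the responders below. The sign of the response was the same in KO and WT cells for 905 of the 908, and for 12151 of all 15139 genes. A large mean response, by which the 908 were chosen, leaves little room for opposite signs, so that count is a description.

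Only 1 gene passed the test of the difference between the responses (0.00661% of genes), and its call was lost under most other settings. It was Olfr325, an olfactory receptor gene, at -4.05 ± 0.24 (limma, adjusted p = 0.0393). Its signal was -8.09 and -8.13 in stimulated KO cells and -8.60 and -8.22 in KO medium, against -4.40 and -4.54 in stimulated WT cells and -8.67 and -8.97 in WT medium. The 2 stimulated WT arrays stood above the other 6, and only on them was the probe well above background. The WT response was therefore at least 4.05-fold, and in KO cells both levels were below background. With background corrected by normexp the difference was -1.28 with an adjusted p of 1. At an unadjusted p below 0.05 the difference covered 456 genes (3.01%), with the KO response above WT for 251 (1.66%) and below it for 205 (1.35%). Uniform p-values would give 757 such genes. The observed count depends on taking same-numbered arrays as unpaired. It was 872 (limma) with a block for replicate number within each genotype.

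The data bound most differences loosely. A response is called kept here when the 95% interval of its difference lay within 2-fold either way, with no adjustment for the number of genes. That held for 400 of the 908 responders (44.1%), and the same interval was met by 67.9% of all genes. Responders had wider intervals, with a median half-width of 0.82 against 0.59 (log2) over all genes. Among the 722 responders measured on all 8 arrays, 386 (53.5%) were kept. By direction, 294 of 563 rising and 106 of 345 falling responses were kept. A response outside the count of kept ones is not thereby shown to differ. The count also depends on taking same-numbered arrays as unpaired. With a block for replicate number within each genotype, 656 of 1046 responders (62.7%) were kept.

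The median rising response was 1.60 in KO cells and 1.57 in WT cells, with a median difference of 0.07. Of the rising responders 331 were stronger in KO cells and 232 weaker. The median difference over all genes was 0.03, and centring arrays on their median moved it to -0.09. Under that centring the share of rising responders with a weaker KO response was 57.8%, against 41.2% with the 75th percentile, so that share has no settled direction. It also turned on the KO arrays used: without both KO replicate 2 arrays it was 68.6% with a median difference of -0.10, and without both KO replicate 1 arrays 25.8% with a median difference of 0.295. The falling responders had a median of -1.16 in KO cells and -1.33 in WT cells, and 240 of 345 (69.6%) fell less in KO cells. That side of the balance held under median centring, with a median difference of 0.06 in place of 0.16, and with KO replicate 1 alone (0.13), but turned to -0.09 with KO replicate 2 alone.

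**Figure D1:**
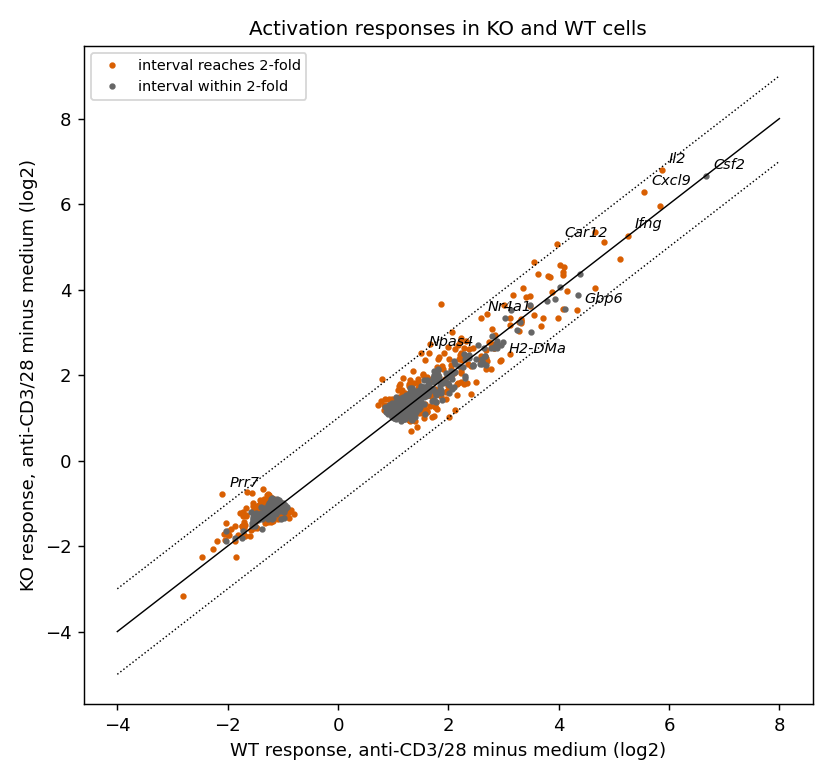
Response to anti-CD3/CD28 (stimulated minus medium, log2) in KO cells (vertical axis) against WT cells (horizontal axis) for the 722 responders well above background on all 8 arrays. Grey points are the 386 whose 95% interval of the difference lies within 2-fold, orange points the others; the solid line marks equal responses and the dotted lines a 2-fold difference.

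The largest rises belonged mostly to cytokine and chemokine genes. Of the 10 genes with the largest mean rise, 6 were well above background on all 8 arrays, and their mean rises lay between 5.0 (Ubd) and 6.66 (Csf2) on the log2 scale. The other 4 were below background in medium in at least 1 genotype, which leaves bounds. Ccl1, a chemokine, rose at least 166-fold in KO and at least 303-fold in WT cells, and Il17a at least 40.1-fold in KO and at least 30.4-fold in WT cells. Il13 rose at least 217-fold in KO cells, and Saa3, an acute-phase protein gene, at least 19.0-fold in WT cells. The range of the KO response lay above that of WT for 2 of the 10, Il2 and Il17a, against 4.86% of all genes. For Il17a this rested on medium signals below background. Its difference was 0.26 without both KO replicate 2 arrays and 2.76 without both KO replicate 1 arrays. Csf2, the growth factor GM-CSF, had 1.53 and 2.13 in stimulated KO cells and -4.64 and -5.0 in KO medium, against 2.49 and 2.24 in stimulated WT cells and -4.16 and -4.44 in WT medium. Its response was 6.65 ± 0.24 in KO cells and 6.66 ± 0.24 in WT cells, a difference of -0.01 with an interval from -0.86 to 0.83. The difference was -0.49 without both KO replicate 2 arrays and 0.46 without both KO replicate 1 arrays. Medium levels were lower on both KO arrays and stimulated levels were too.

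Ifng, which encodes interferon-gamma, had 4.99 and 6.79 in stimulated KO cells and 0.67 and 0.58 in KO medium, against 5.97 and 5.72 in stimulated WT cells and 0.68 and 0.50 in WT medium. The stimulated WT arrays lay between the 2 stimulated KO arrays. The difference of 0.01 ± 0.75 therefore carried an interval from -1.81 to 1.83, so Ifng was not among the kept responses although it rose by 5.26 ± 0.53 in KO and 5.25 ± 0.53 in WT cells. Without both KO replicate 2 arrays the difference was -0.93, and without both KO replicate 1 arrays it was 0.95.

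Il4, the signature cytokine of type 2 helper cells, was kept. Its signal was 2.18 and 2.63 in stimulated KO cells and -1.81 and -2.08 in KO medium, against 3.16 and 2.79 in stimulated WT cells and -1.23 and -1.58 in WT medium. Every KO array was below both WT arrays of its treatment, and the responses of 4.35 ± 0.23 in KO and 4.38 ± 0.23 in WT cells differed by -0.03 (interval -0.82 to 0.77), or by -0.39 and 0.33 without both KO replicate 2 and without both KO replicate 1 arrays.

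Irf4, a transcription factor whose level follows receptor signal strength, had 4.84 and 5.0 in stimulated KO cells and 0.71 and 0.99 in KO medium, against 5.13 and 5.03 in stimulated WT cells and 1.05 and 1.06 in WT medium. It rose by 4.07 ± 0.14 in KO cells and 4.03 ± 0.14 in WT cells, with a difference of 0.04 and an interval from -0.43 to 0.51. Myc, which drives growth of activated cells, rose by 3.74 ± 0.26 in KO cells and 3.79 ± 0.26 in WT cells (interval of the difference -0.93 to 0.84). Other kept responses with intervals of this kind were those of Cd274, the ligand PD-L1 (-0.09 ± 0.22), of Socs1, which dampens cytokine receptors (-0.20 ± 0.25), of the survival gene Bcl2 (-0.08 ± 0.26) and of Icam1, the adhesion ligand of LFA-1 (0.00 ± 0.26). The value without both KO replicate 2 arrays was -0.48 for Socs1 and -0.32 for Icam1, and without both KO replicate 1 arrays it was 0.09 for Socs1 and 0.33 for Icam1.

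**Figure D2:**
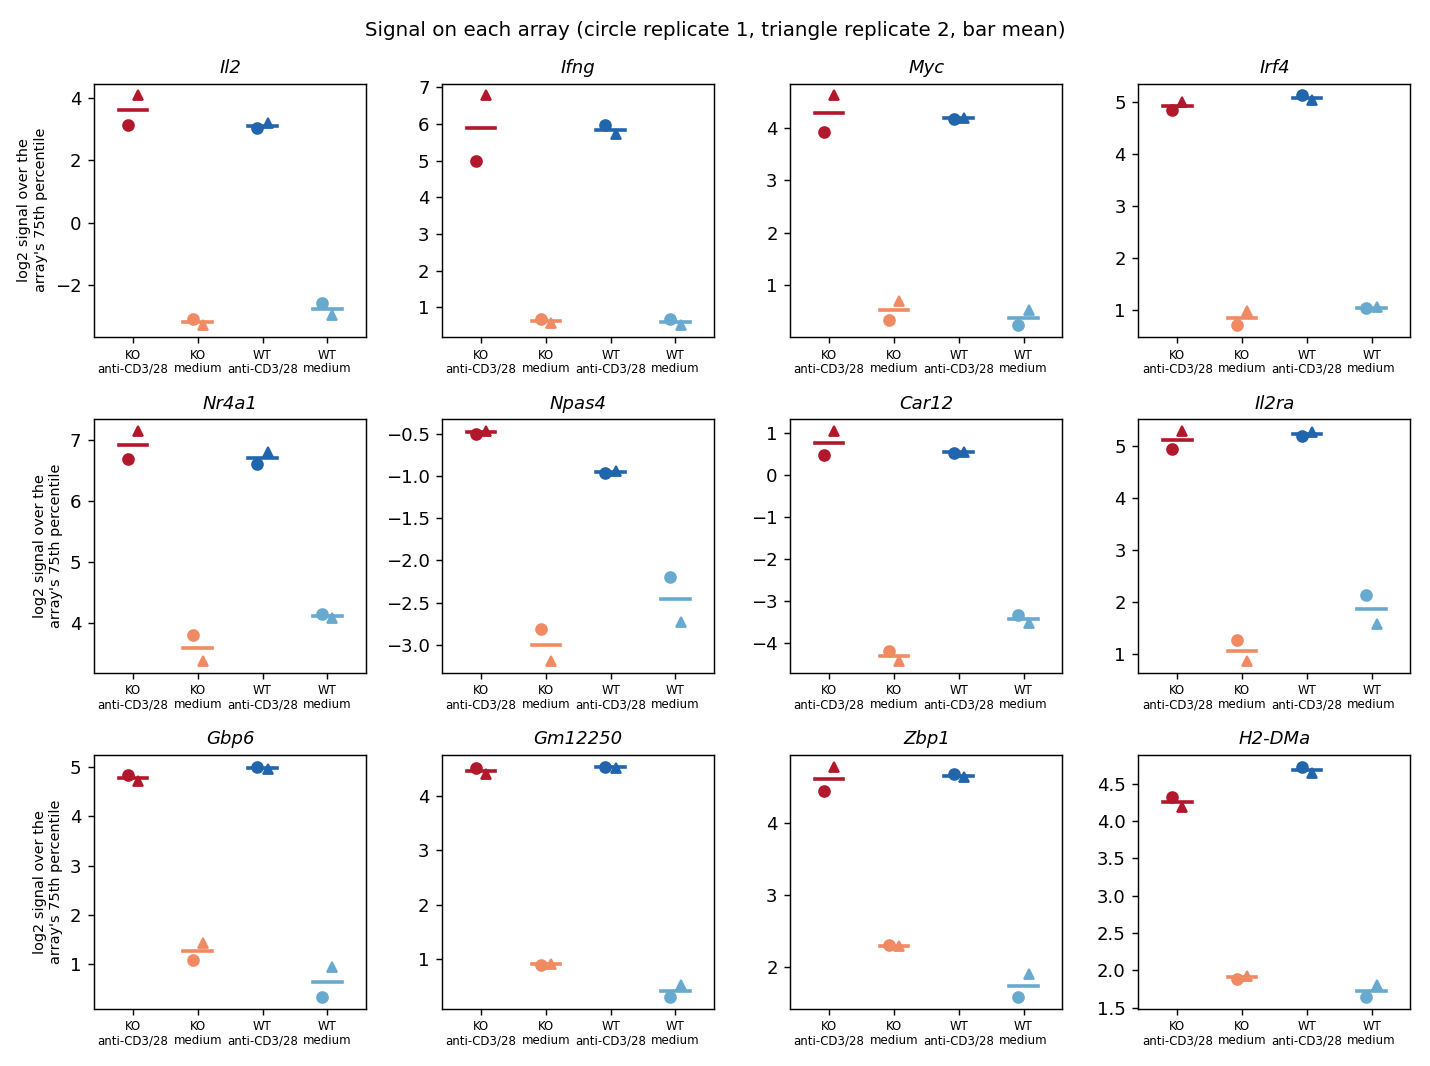
Log2 signal over the array's 75th percentile on each of the 8 arrays for 12 genes, with circles for replicate 1, triangles for replicate 2 and bars for the mean of 2 arrays. The top row holds large responses, the middle row genes whose KO response was the stronger one and the bottom row genes whose KO response was the weaker one.

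Most cytokine genes rose on stimulation, and the side on which their genotype difference lay turned on 1 pair of KO arrays. Of 29 measured, 23 rose and 1 fell in the mean response, against 12.2% and 12.3% of all genes. None of the 29 passed the test of the difference or reached an unadjusted p below 0.05. The median response was 2.78 in KO cells and 2.21 in WT cells. The difference was positive for 22 of 29 with a median of 0.19, against 54.7% of all genes. On single arrays the median rise over the genotype's own medium was 2.04 and 3.57 in stimulated KO cells and 1.84 and 2.27 in stimulated WT cells. The KO array numbered 2, which also carried the neutrophil and erythroid markers, stood above the other 3. Without both KO replicate 2 arrays 14 of 29 differences were positive with a median of -0.03, and without both KO replicate 1 arrays 25 were, with a median of 0.50. The part of the marker transcripts in this was not tested.

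Il2, the main T cell growth factor, was one of the cytokine genes on the stronger side. Its signal was 3.14 and 4.08 in stimulated KO cells and -3.08 and -3.29 in KO medium, against 3.02 and 3.20 in stimulated WT cells and -2.57 and -2.95 in WT medium. Both KO medium arrays were below both WT medium arrays, while the stimulated groups overlapped. The response was 6.79 ± 0.32 in KO cells and 5.87 ± 0.32 in WT cells, and the difference of 0.93 ± 0.45 had an unadjusted p of 0.0824 (limma) and did not pass. Without both KO replicate 2 arrays it was 0.35. Il2ra, the high-affinity receptor chain for this cytokine, rose by 4.04 ± 0.24 in KO and 3.36 ± 0.24 in WT cells, and the difference of 0.68 ± 0.34 (limma, unadjusted p = 0.0955) did not pass. Tnf, an inflammatory cytokine, rose by 4.32 ± 0.30 in KO and 3.80 ± 0.30 in WT cells. The difference without both KO replicate 2 arrays was 0.30 for Il2ra and 0.17 for Tnf, and without both KO replicate 1 arrays it was 1.06 for Il2ra and 0.87 for Tnf.

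The chemokine list likewise turned on the KO pair. Of 12 measured, 8 rose and none fell, against 12.2% and 12.3% of all genes. The median response was 4.15 in KO cells and 3.98 in WT cells. The difference was positive for 9 of 12, against 54.7% of all genes. It was positive for 3 of 12 without both KO replicate 2 arrays and for 10 of 12 without both KO replicate 1 arrays. Xcl1, a chemoattractant for cross-presenting dendritic cells, rose by 4.36 ± 0.27 in KO and 3.62 ± 0.27 in WT cells. Ccl4, an inflammatory chemokine, rose by 5.11 ± 0.32 in KO and 4.82 ± 0.32 in WT cells. With both KO replicate 2 arrays left out the difference was -0.24 for Ccl4 and 0.22 for Xcl1, and without both KO replicate 1 arrays it was 0.82 for Ccl4 and 1.27 for Xcl1. Cxcl9, an interferon-gamma-induced ligand of CXCR3, had 1.38 and 4.87 in stimulated KO cells and -3.64 and -2.68 in KO medium, against 1.94 and 1.67 in stimulated WT cells and -3.67 and -3.81 in WT medium. The gap between the 2 stimulated KO arrays exceeded the difference between the genotype means.

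**Figure D3:**
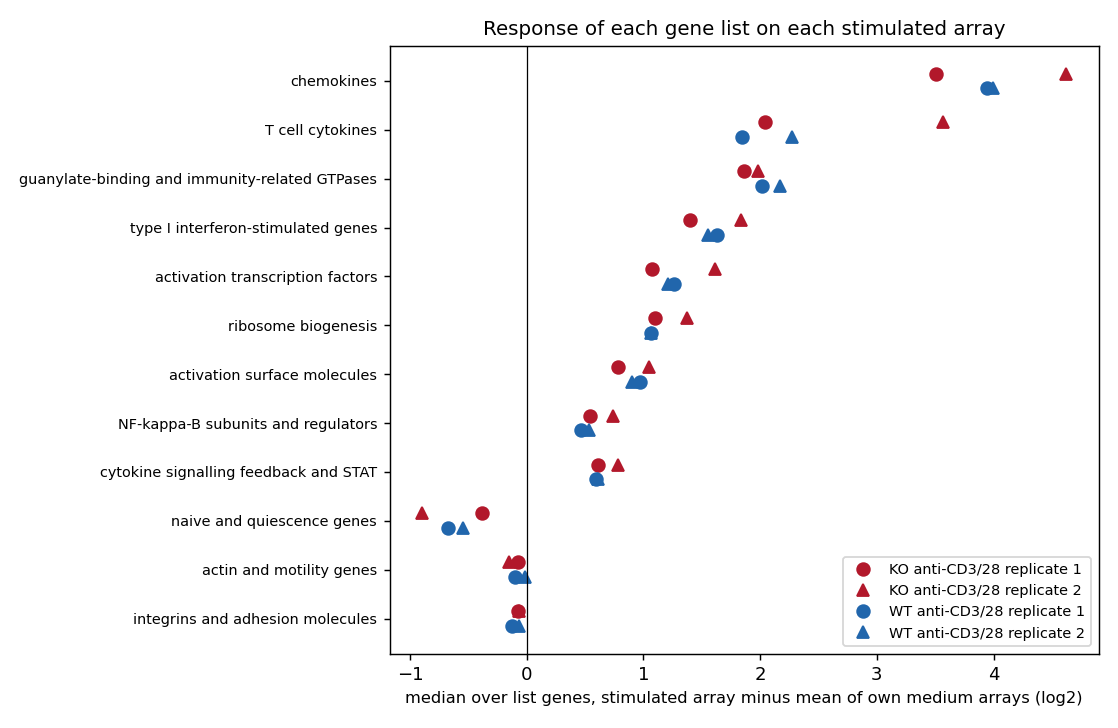
Median over each gene list of the stimulated array minus the mean of its genotype's own 2 medium arrays (log2, horizontal axis) for the 4 stimulated arrays, with KO in red, WT in blue, circles for replicate 1 and triangles for replicate 2. For cytokines the arrays sit at 2.04 and 3.57 in KO and at 1.84 and 2.27 in WT cells, and for the interferon-gamma-induced GTPase list at 1.86 and 1.98 in KO and at 2.02 and 2.17 in WT cells.

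Interferon-gamma-induced genes leaned to a smaller KO response with either pair of KO arrays, although no member passed the test. The list held guanylate-binding proteins, immunity-related GTPases, the transcription factors Irf1 and Ciita, and genes of antigen processing. Of 25 measured, 23 rose and none fell, against 12.2% and 12.3% of all genes. The median response was 1.97 in KO cells and 2.10 in WT cells. Over all genes 54.7% of differences were positive, with a median of 0.03. In this list the difference was below 0 for 23 of 25, with a median of -0.20. The exceptions were Irf1 at 0.03 and Ciita, the master regulator of MHC class II genes, at 0.95. The count below 0 was 23 without both KO replicate 2 arrays, 18 without both KO replicate 1 arrays, 24 under median centring and 22 under quantile normalization. The ranges of the KO response lay below those of WT for 9 of 25, against 6.15% of all genes, and above for 1, against 4.86%. A lean below 0 with either pair was not particular to this list. Of 22 glycolysis genes 16 differences were below 0, with a median of -0.13. The count was 17 without both KO replicate 2 arrays and 16 without both KO replicate 1 arrays.

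The differences of the interferon-gamma-induced list were small, and 14 of its 17 responders were kept within 2-fold. At an unadjusted p below 0.05 the list had 1 weaker gene, Gbp6, and none passed adjustment. The list median of KO minus WT was -0.12 after stimulation and 0.06 in medium, against -0.04 and -0.06 over all genes. Probes of these families can share sequence with close relatives, so values of single members are uncertain as to the gene.

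Gbp6, a guanylate-binding protein, had 4.84 and 4.72 in stimulated KO cells and 1.09 and 1.43 in KO medium, against 5.0 and 4.95 in stimulated WT cells and 0.34 and 0.94 in WT medium. The KO arrays were higher in medium and lower after stimulation. The response was 3.52 ± 0.22 in KO and 4.34 ± 0.22 in WT cells, a difference of -0.82 ± 0.31 (limma, unadjusted p = 0.0397), and a second Gbp6 probe gave -0.10. Gbp2 rose by 3.54 in KO and 4.08 in WT cells, Gbp10 by 2.15 in KO and 2.77 in WT cells, and Irgm1, a regulator of the GTPase family, by 2.23 in KO and 2.44 in WT cells. Gbp5 rose by 3.79 in KO and 3.93 in WT cells (a difference of -0.39 without both KO replicate 2 arrays and 0.09 without both KO replicate 1 arrays), and Iigp1, which disrupts the vacuoles of intracellular parasites, by 3.25 in KO and 3.30 in WT cells.

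Gm12250, the immunity-related GTPase also called Irgb10, was outside the list. It had 4.50 and 4.39 in stimulated KO cells and 0.90 and 0.92 in KO medium, against 4.53 and 4.51 in stimulated WT cells and 0.30 and 0.52 in WT medium. The stimulated arrays were nearly level, and the KO medium arrays were both higher than the WT medium arrays. It rose by 3.54 ± 0.12 in KO and 4.11 ± 0.12 in WT cells, with a difference of -0.57 ± 0.17 (limma, unadjusted p = 0.0145).

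The promoters of 3 of these genes are shown because 2 sequence motifs were frequent among the list's members. They are the 250 bases before the gene's start in RefSeq, build GRCm38.p6, in the direction of the gene. Capitals mark matches on either strand to TTCNNNGAA, the gamma-activated site (GAS), or to GAAA, any 2 bases and GAAA again, the core of the interferon-stimulated response element (ISRE). Matches that overlap run together.
Gm12250 (chr11:58183593-58183842, plus strand): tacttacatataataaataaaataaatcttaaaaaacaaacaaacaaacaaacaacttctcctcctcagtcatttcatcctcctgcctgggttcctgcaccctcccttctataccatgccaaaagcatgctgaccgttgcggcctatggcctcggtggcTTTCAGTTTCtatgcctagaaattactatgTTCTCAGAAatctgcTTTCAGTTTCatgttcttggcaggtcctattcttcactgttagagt
Gbp2 (chr3:142620413-142620662, plus strand): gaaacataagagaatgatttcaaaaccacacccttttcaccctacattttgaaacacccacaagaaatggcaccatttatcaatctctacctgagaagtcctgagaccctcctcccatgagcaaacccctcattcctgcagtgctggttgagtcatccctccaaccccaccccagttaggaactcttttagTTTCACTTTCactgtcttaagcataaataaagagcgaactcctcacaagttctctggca
Irgm1 (chr11:48871421-48871670, minus strand): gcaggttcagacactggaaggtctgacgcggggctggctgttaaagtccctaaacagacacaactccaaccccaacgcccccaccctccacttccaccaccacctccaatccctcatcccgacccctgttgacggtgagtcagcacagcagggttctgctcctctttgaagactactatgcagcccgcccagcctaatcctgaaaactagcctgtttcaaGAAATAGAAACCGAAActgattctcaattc

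Of the 25 list members 16 had a promoter entry, and 8 of the 16 held the GAS letters and 9 (56.2%) the ISRE core. Over all 27025 promoters the shares were 7.18% and 3.04%. The promoter of Gm12250 held 1 GAS and 2 ISRE matches, that of Gbp2 held 1 ISRE match and that of Irgm1 held 2 overlapping ISRE matches. These are matches of letters and not measured binding.

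For genes of the type I interferon response the side of the difference depended on the KO arrays used. Of 30 measured 27 rose, against 12.2% of all genes, with a median response of 1.55 in KO and 1.60 in WT cells. Differences were positive for 12 of 30, against 54.7% of all genes. Without both KO replicate 2 arrays 2 of 30 were positive, and without both KO replicate 1 arrays 19 were. In this list the KO levels were the higher ones in both treatments, with medians of KO minus WT of 0.38 after stimulation and 0.43 in medium. Zbp1, a sensor of Z-form nucleic acid, had 4.44 and 4.79 in stimulated KO cells and 2.30 and 2.29 in KO medium, against 4.69 and 4.64 in stimulated WT cells and 1.58 and 1.90 in WT medium. The KO medium arrays were above the WT medium arrays while the stimulated groups overlapped, and the difference was -0.61 ± 0.24 (limma, unadjusted p = 0.0404). A second Zbp1 probe gave -0.36. Oasl2 differed by -0.54 ± 0.28. Oas2, an antiviral synthetase, differed by -0.38 ± 0.42, and by -0.76 without both KO replicate 2 arrays and 0.006 without both KO replicate 1 arrays. Promoters of this list held the ISRE core in 9 of 23 entries (39.1%).

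The weaker responses measured on all 8 arrays were looked at singly. The 12 responders with the smallest p on that side, a set chosen after the values were seen because dim probes filled the first ranking, had differences between 0.45 and 1.32 in size and unadjusted p between 0.00418 and 0.0383. None passed adjustment (limma, adjusted p of 1). In 7 of the 12 both stimulated KO arrays were below both stimulated WT arrays (24.2% of all genes), and in 7 both KO medium arrays were above both WT medium arrays (12.9%). These levels enter the difference that chose the genes and are given as a description.

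H2-DMa, a chaperone that loads peptide onto MHC class II, had 4.32 and 4.18 in stimulated KO cells and 1.89 and 1.93 in KO medium, against 4.72 and 4.64 in stimulated WT cells and 1.64 and 1.81 in WT medium. Both stimulated KO arrays were below both WT arrays, and the order was the other way round in medium. It rose by 2.34 ± 0.12 in KO and 2.96 ± 0.12 in WT cells, a difference of -0.62 ± 0.17 (limma, unadjusted p = 0.00987). B cells and myeloid cells also express it, and the part of those cells in this value was not tested.

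Pros1, which encodes the anticoagulant and TAM-receptor ligand protein S, had 1.77 and 1.69 in stimulated KO cells and -2.50 and -2.13 in KO medium, against 2.32 and 2.13 in stimulated WT cells and -2.50 and -2.37 in WT medium. Medium levels overlapped and stimulated levels did not, and the difference was -0.62 ± 0.22. Metrnl, a secreted factor related to meteorin, differed by the same amount (-0.62 ± 0.19) but with higher KO levels in medium. Cst7, the protease inhibitor cystatin F, rose by 1.03 ± 0.18 in KO and 1.71 ± 0.18 in WT cells. En2, a homeobox gene, rose by 1.18 ± 0.15 in KO and 2.12 ± 0.15 in WT cells, and its spot lay in the first 10 of 384 rows of the array (these rows hold 2.58% of probe spots). Of falling genes, Ptgfrn, a tetraspanin partner, fell by 0.76 ± 0.13 in KO and by 1.56 ± 0.13 in WT cells, the smallest p of the 12.

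Tnfrsf9, the costimulatory receptor 4-1BB, had 3.0 and 3.10 in stimulated KO cells and 2.88 and 2.91 in KO medium, against 3.75 and 3.27 in stimulated WT cells and 2.52 and 2.77 in WT medium. Its response was 0.16 ± 0.19 in KO and 0.87 ± 0.19 in WT cells (limma, unadjusted p of the difference 0.0365), but a second probe of the gene gave a difference of 0.14 in the other direction.

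**Figure D4:**
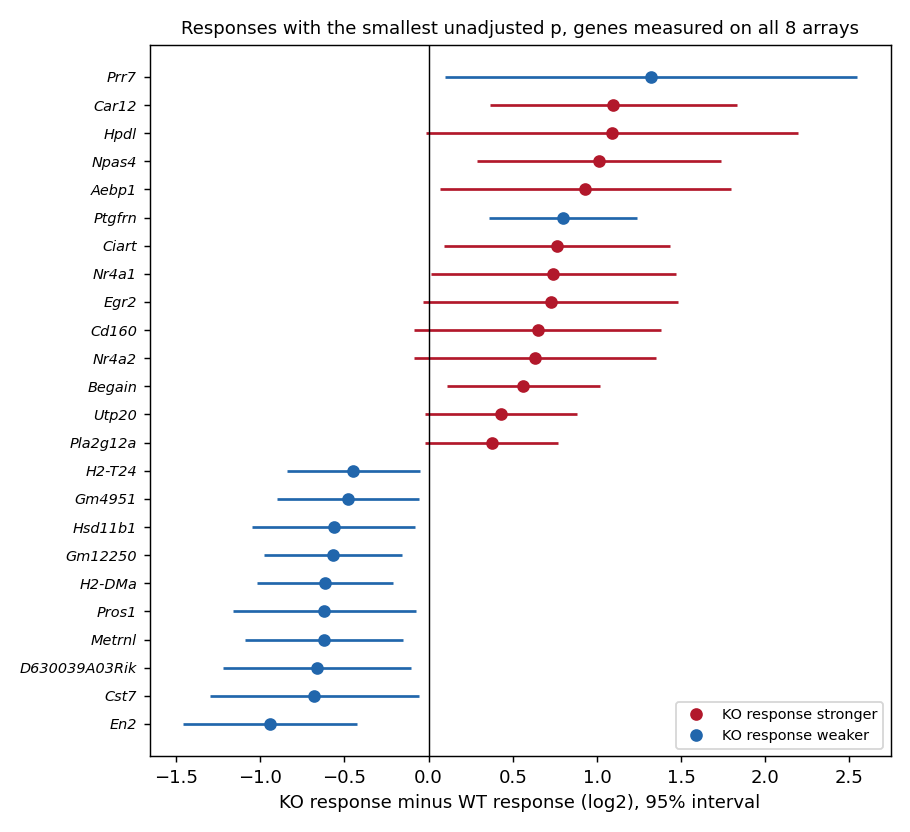
Difference between the responses (KO minus WT, log2) with its 95% interval for the 12 weaker and the 12 stronger KO responses with the smallest unadjusted p among responders well above background on all 8 arrays. Ptgfrn and Prr7 fell on stimulation, so their positive difference is a weaker fall; the intervals are not adjusted for the choice of genes.

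Among transcription factors that appear first after receptor engagement, the Nr4a genes, Egr1 and Egr2 lay on the side of a stronger KO response. The size of their differences turned on the KO pair, as did the side of the whole list of activation transcription factors. Of 30 activation transcription factors measured 25 rose and none fell, against 12.2% and 12.3% of all genes. The median response was 1.37 in KO and 1.26 in WT cells. The difference was positive for 21 of 30, against 54.7% of all genes, with a median of 0.22. At an unadjusted p below 0.05 the list had 2 stronger and no weaker genes, Nr4a1 and the dim Egr3, and none passed adjustment. The 3 Nr4a genes, Egr1 and Egr2 were measured on all 8 arrays and had positive differences between 0.63 (Nr4a2) and 0.77 (Nr4a3). When both KO replicate 2 arrays were left out the difference was 0.18 for Nr4a2, 0.25 for Egr1 and 0.38 for Egr2, and without both KO replicate 1 arrays it was 1.08 for Nr4a2, 1.15 for Egr1 and 1.07 for Egr2. Jun was at -0.21 ± 0.24 and Fos, its partner in AP-1, at 0.02. Without both KO replicate 2 arrays 14 of the 30 differences were positive, with a median of -0.03, and without both KO replicate 1 arrays 25 were.

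Nr4a1, the orphan nuclear receptor Nur77, had 6.69 and 7.15 in stimulated KO cells and 3.80 and 3.38 in KO medium, against 6.61 and 6.80 in stimulated WT cells and 4.14 and 4.09 in WT medium. The medium groups did not overlap, with KO the lower, while the stimulated groups did. It rose by 3.33 ± 0.21 in KO and 2.59 ± 0.21 in WT cells, a difference of 0.74 ± 0.30 (limma, unadjusted p = 0.0470). With KO replicate 1 alone the difference was 0.30 and with KO replicate 2 alone 1.18.

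Npas4, a transcription factor best known from neurons after calcium entry, had -0.50 and -0.47 in stimulated KO cells and -2.81 and -3.19 in KO medium, against -0.96 and -0.95 in stimulated WT cells and -2.20 and -2.72 in WT medium. KO arrays were higher after stimulation and lower in medium. The response was 2.52 ± 0.21 in KO and 1.5 ± 0.21 in WT cells, with a difference of 1.01 ± 0.30 (limma, unadjusted p = 0.0139). It was 0.81 with KO replicate 1 alone and 1.22 with KO replicate 2 alone.

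Egr2, a zinc-finger factor tied to T cell tolerance, rose by 3.42 ± 0.22 in KO and 2.69 ± 0.22 in WT cells. Egr1, its relative, rose by 3.87 ± 0.23 in KO and 3.17 ± 0.23 in WT cells. For both the KO medium arrays were below the WT medium arrays, at 0.24 and 0.18 against 0.88 and 0.65 for Egr2 and at 1.01 and 0.60 against 1.47 and 1.09 for Egr1. Egr3 was not well above background in KO medium, so its KO response is given as at least 2.50-fold, and with normexp background correction its difference was 0.14. Egr4 was below background in medium in both genotypes and rose at least 15.5-fold in KO and at least 12.1-fold in WT cells.

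The promoters of Nr4a1 and Npas4 are shown because both carry the half-site of the cAMP response element, TGACG, which CREB binds. Capitals mark it on either strand, in the 250 bases before the gene's start (RefSeq, GRCm38.p6, in the direction of the gene).
Nr4a1 (chr15:101266596-101266845, plus strand): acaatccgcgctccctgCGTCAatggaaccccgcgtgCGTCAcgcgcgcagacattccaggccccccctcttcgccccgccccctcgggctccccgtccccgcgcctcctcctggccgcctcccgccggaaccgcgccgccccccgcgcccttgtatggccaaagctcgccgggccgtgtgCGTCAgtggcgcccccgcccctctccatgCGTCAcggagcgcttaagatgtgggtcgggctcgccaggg
Npas4 (chr19:4989972-4990221, minus strand): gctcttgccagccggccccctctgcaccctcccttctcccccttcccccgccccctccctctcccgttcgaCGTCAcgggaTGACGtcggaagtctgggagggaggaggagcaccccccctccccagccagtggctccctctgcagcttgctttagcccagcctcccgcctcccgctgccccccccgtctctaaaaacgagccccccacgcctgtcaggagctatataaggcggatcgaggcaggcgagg

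Nr4a1 held 4 matches and Npas4 held 2. Of 23 activation transcription factors with a promoter entry 12 held the letters (52.2%), against 17.9% of all promoters and 13 of 29 promoters of the ribosome biogenesis list (44.8%).

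The 12 stronger responses measured on all 8 arrays all rose on stimulation, with differences between 0.37 and 1.1 and unadjusted p between 0.0104 and 0.0750, and none passed adjustment (limma, adjusted p of 1). In 8 of the 12 both stimulated KO arrays were above both stimulated WT arrays (13.3% of all genes), and in 10 both KO medium arrays were below both WT medium arrays (21.1%). Car12, a carbonic anhydrase of the cell surface, had the smallest p of these. Its signal was 0.46 and 1.04 in stimulated KO cells and -4.18 and -4.44 in KO medium, against 0.52 and 0.55 in stimulated WT cells and -3.33 and -3.52 in WT medium. The stimulated groups overlapped and the medium groups did not. It rose by 5.07 ± 0.21 in KO and 3.97 ± 0.21 in WT cells, and the difference was 0.68 without both KO replicate 2 arrays. Others were Cd160, an inhibitory surface receptor (0.65 ± 0.30), the circadian repressor Ciart (0.76 ± 0.28) and Aebp1 (0.93 ± 0.36). Leaving out both KO replicate 2 arrays gave differences of 0.245 for Cd160, 0.44 for Ciart and 0.49 for Aebp1, and leaving out both KO replicate 1 arrays gave 1.05 for Cd160, 1.085 for Ciart and 1.37 for Aebp1.

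Ribosome biogenesis genes, which supply the growth of activated cells, rose in 30 of 34 cases, against 12.2% of all genes, and 20 were responders. Of those 20, 19 were kept within 2-fold, against 44.1% of all responders. Large parts were also kept of the GTPase list, with 14 of 17 responders, and of cytokine feedback and STAT genes, with 11 of 13. Smaller parts of other lists were kept, with 5 of 21 cytokine and 0 of 8 chemokine responders. For activation transcription factors it was 9 of 20, and for type I interferon genes 12 of 23. These counts depend on interval width as well as on the difference. The median half-width over a list's genes was 0.54 (log2) for ribosome, 0.84 for cytokine and 1.55 for chemokine genes. The median response of the ribosome list was 1.24 in KO and 1.06 in WT cells. Its difference was positive for 33 of 34, against 54.7% of all genes, with a median of 0.15 and a range from -0.03 to 0.51. Under median centring 22 were positive, with a median of 0.04. On single stimulated arrays the list's median rise was 1.1 and 1.38 in KO cells and 1.06 and 1.06 in WT cells. Without both KO replicate 2 arrays 6 of 34 were positive, with a median of -0.06, and without both KO replicate 1 arrays 34 were. Utp20, a factor of small-subunit assembly, had 0.64 and 0.93 in stimulated KO cells and -0.66 and -0.73 in KO medium, against 0.54 and 0.59 in stimulated WT cells and -0.51 and -0.46 in WT medium. Its KO arrays were the higher ones after stimulation and the lower ones in medium, and the difference was 0.43 ± 0.19, or 0.25 without both KO replicate 2 arrays. Polr1b, which forms part of RNA polymerase I, rose by 1.86 ± 0.17 in KO and 1.83 ± 0.17 in WT cells, with a difference of -0.21 without both KO replicate 2 arrays and 0.27 without both KO replicate 1 arrays.

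**Figure D5:**
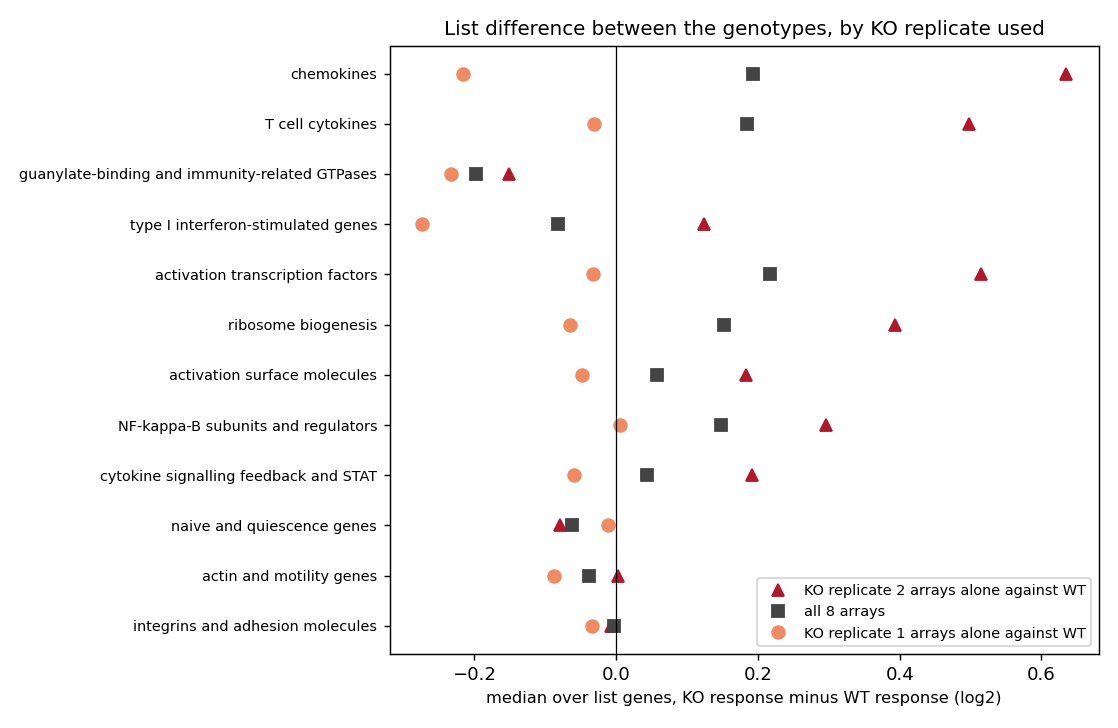
Median difference between the responses (KO minus WT, log2, horizontal axis) of each gene list from all 8 arrays (squares), with the KO replicate 1 arrays alone against WT (circles) and with the KO replicate 2 arrays alone against WT (triangles). The GTPase list stays below 0 in all 3 fits (-0.23, -0.20 and -0.15), while chemokines lie at -0.22, 0.19 and 0.64. The naive list (-0.012, -0.062 and -0.079) and the integrin list (-0.034, -0.003 and -0.007) also stay below 0.

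Surface molecules of activation rose in 20 of 28 cases, against 12.2% of all genes, with medians of 0.92 in KO and 0.90 in WT cells. Of their 13 responders 6 were kept. Cd69, an early retention receptor, rose by 2.63 ± 0.24 in KO and 2.44 ± 0.24 in WT cells, with a difference of -0.14 without both KO replicate 2 arrays and 0.52 without both KO replicate 1 arrays. NF-kappa-B subunits and regulators rose in 11 of 20 cases. Of their differences 17 were positive, against 54.7% of all genes, but 10 without both KO replicate 2 arrays. Genes of cytokine feedback and STAT signalling had 13 responders, of which 11 were kept. Cish, a target of STAT5, rose by 3.33 ± 0.17 in KO and 3.03 ± 0.17 in WT cells, and that difference was -0.05 without both KO replicate 2 arrays and 0.66 without both KO replicate 1 arrays.

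Genes of naive and resting T cells fell more than they rose on stimulation. Of 28 measured 14 fell and 4 rose in the mean response, against 12.3% and 12.2% of all genes. The median response was -0.68 in KO and -0.61 in WT cells. No difference reached an unadjusted p below 0.05, and of the list's 8 responders 0 were kept. S1pr1, the receptor that lets T cells leave lymphoid tissue, had 3.66 and 2.89 in stimulated KO cells and 4.91 and 4.53 in KO medium, against 3.55 and 3.69 in stimulated WT cells and 4.76 and 5.02 in WT medium. The groups of each treatment overlapped, and the fall was 1.44 ± 0.28 in KO and 1.27 ± 0.28 in WT cells. Zfp36l2, an mRNA decay factor outside that list, fell on stimulation and was kept at -1.23 ± 0.13 in KO and -1.20 ± 0.13 in WT cells.

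In the lists of actin and motility genes, adhesion molecules and chemokine and homing receptors, no difference between the genotypes passed the test. Of 50 actin and motility genes 4 rose and 5 fell on stimulation, against 12.2% and 12.3% of all genes. Their median responses were -0.13 in KO and -0.05 in WT cells. None reached an unadjusted p below 0.05 for the difference, and for 48 of 50 the interval lay within 2-fold (96.0%, against 67.9% of all genes). Intervals were also narrower in this list, with a median half-width of 0.485 (log2) against 0.591 over all genes. Was, the actin regulator deficient in Wiskott-Aldrich syndrome, differed by -0.34 ± 0.19, and Lcp1, an actin-bundling protein, rose by 0.60 ± 0.13 in KO and 0.85 ± 0.13 in WT cells. Of 24 integrins and adhesion molecules 3 rose and 1 fell, against the same shares of all genes. For 20 of them the interval lay within 2-fold (83.3%, against 67.9% of all genes). Itgb2, the beta chain of LFA-1, differed by -0.20 ± 0.20. Of 22 chemokine and homing receptors 4 rose and 6 fell, against 12.2% and 12.3% of all genes. For 12 of these 22 the interval lay within 2-fold (54.5%, against 67.9% of all genes). Ccr4 rose by 2.37 ± 0.24 in KO and 2.31 ± 0.24 in WT cells, and Ccr7, the receptor for lymph node entry, fell by 0.68 ± 0.19 in KO and by 0.59 ± 0.19 in WT cells.

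The largest differences in size belonged to dim probes. Among responders ranked by p alone, 10 of the 12 weaker KO responses and 9 of the 12 stronger ones were not well above background on at least 1 array. Gpr39, a zinc-sensing receptor, had -7.91 and -7.97 in stimulated KO cells and -8.45 and -7.98 in KO medium, against -4.35 and -4.57 in stimulated WT cells and -8.51 and -8.82 in WT medium. As for Olfr325, the stimulated WT arrays alone were well above background, and the WT response was at least 4.07-fold. Sox5, a transcription factor, was the opposite case, at -3.92 and -4.29 in stimulated KO cells and -8.41 and -7.67 in KO medium, against -7.55 and -7.95 in stimulated WT cells and -5.78 and -6.68 in WT medium. Its KO response was at least 3.90-fold. Of the 12 weaker genes 5 had their spot in the first 10 of 384 rows, which hold 2.58% of probe spots, and of the 12 stronger genes none did. Over all genes with a spot in those rows, 2.54% had a KO response below WT at an unadjusted p below 0.05 and 3.0% above it, against 1.32% and 1.62% in the other rows. The 10 rows were chosen after the positions were seen, and the part of spot position in these values was not tested.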

How the data were processed

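Per the file headers, spots were read with Agilent Feature Extraction 10.7.1.1 for the build mm9, and the deposited intensities of the spots are linear. Its processed signal has had background subtracted. The deposited value table holds the median intensity (0 values differ), not centred. Each array has 62976 spots, of which 3671 are controls, and 55681 probes.

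From these deposited values, log2 processed signal was computed and the array's 75th percentile over non-control spots was subtracted. Control and outlier spots were left out, and spots of a probe were averaged. Probes well above background on both arrays of a group were kept (37257). RefSeq (GRCm38.p6) accessions named 26056 probes. The probe with the highest mean stood for a gene, which gave 15139 genes. Where both arrays of a group are below background only a bound is given, from the lowest signal well above background on each array or the probe's own if higher ("at least N-fold"). In 24 genes an outlier spot removed an array.

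A mean for each of the 4 groups was fitted with limma 3.58.1 in R 4.3.3 (statmod 1.5.0, data.table version 1.17.8), with two-sided p-values adjusted by Benjamini-Hochberg over all genes and 4 residual degrees of freedom plus 2.12 from the moderated variance. The script was tested on simulated data. The number of arrays limits the precision. Ranges of a response run over all pairings of a stimulated and a medium array.

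The rule for naming took Lsp1, the gene called, and the 12 weaker and 12 stronger responders with the smallest p. It added the 10 largest rises, the 6 largest falls and 22 canonical activation genes. Of each list it took the 2 largest responses and the smallest p in each direction. Values are given above for only some of these genes. The 12 and 12 measured on all 8 arrays, and other list members given with their values, were added after values were seen. The comparison, the lists and the rule were chosen with earlier results of these data known. The labels do not say what the replicate numbers mark, and they were not taken as pairs. Within each genotype same-numbered arrays shared a slide column. Same-numbered KO arrays were alike. Their deviations correlated at 0.742, against 0.161 in WT cells and -0.244 to -0.061 between genotypes.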

Additional observations from a re-analysis of the deposited data

Results flagged for a closer look

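Olfr325, an olfactory receptor gene, was marked because the difference between its KO and WT responses passed the test of that difference. The value was -4.05 ± 0.24 on the log2 scale (limma, adjusted p = 0.0393). Its adjusted p was 0.0657 with all probes tested, 0.101 without the filter on dim probes and 0.799 with an intensity trend, and only the 2 stimulated WT arrays were well above background.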

How the results depend on the processing

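Calls of the difference numbered 3 with quantile normalization (Gjb6, Gpr39 and Olfr325) and 2 with median centring (Gpr39 and Olfr325). They numbered 0 with normexp on the median signal (298 genes at an unadjusted p below 0.05), without the filter on dim probes (745), with probes well above background on all 8 arrays (317), with the authors' deposited table (321), with all probes (1716), with an intensity trend (378), without both KO replicate 2 arrays (498) and without both KO replicate 1 arrays (1081). Leaving out single arrays gave 0 to 1, the 1 being Kcna10 without WT stimulated replicate 1. With a replicate block, added although the numbers are not taken as pairs, 0 genes were called (540 at an unadjusted p below 0.05), and with a replicate block within each genotype 0 (872). Calls of the mean response numbered 6435 with all probes, 5922 with the block within genotype, and 1468 (without WT stimulated replicate 1) to 3845 when single arrays were left out. They were 1564 without WT stimulated replicate 2, 1771 without WT medium replicate 1, 2422 without KO stimulated replicate 2 and 2414 without KO medium replicate 1. Responses kept within 2-fold numbered 694 with all probes, 656 with the block within genotype, and 233 (without WT stimulated replicate 2) to 388 with single arrays left out, and 242 without WT stimulated replicate 1. The cause was not tested. With all probes more features were tested, and without an array fewer samples were. Of 2911 values of 147 named genes, 2891 kept their direction or had none given and stayed on their side of the threshold, 17 of Olfr325 lost the call and 3 gained one (Gpr39 in 2 and Gjb6 in 1). The sign changed in 178 where no direction was given. Of list medians under these settings, 525 moved by less than their spread and 55 by more. Normexp on the mean signal was not run, because the median signal was the column at hand. Signal near background limits the values of dim probes.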
